A study of Mus musculus with 2 samples.

Results

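Cholesterol and fatty acids are both built from acetyl-CoA. In the sterol branch, acetyl units are joined into mevalonate, then into squalene, and squalene is closed and trimmed to cholesterol. In the fatty acid branch, acetyl-CoA is carboxylated to malonyl-CoA and condensed to palmitate, which desaturases and elongases modify further. The membrane-bound transcription factors SREBP1 and SREBP2 control many genes of both branches: SCAP carries them out of the endoplasmic reticulum, and the INSIG proteins hold them back. PPARG is a nuclear receptor best known for driving fat storage in adipocytes, and in the urothelium, the epithelium that lines the ureter, it acts in the differentiation of superficial (S) cells.

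The 36 genes described here are enzymes and regulators of these pathways, taken as a list of names by pathway. All 36 were on the array, out of 29923 genes measured. For 35 of them, and for 22499 genes in all, the probe was well above background in 1 or both channels of each array. Elovl3 was the member that was not, with signals of 1.87 and 0.648 units in the female and 0.668 and 1.65 units in the male pools.

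Ureters of mouse embryos of the NMRI strain were compared at E18.5, late in fetal life, on 2 two-colour arrays. Each array held a Pparg-cKO pool of genotype Pax2-cre/+; Pparg(fl/fl) and a control pool labelled Pparg(fl/?). By the study's methods the controls were littermates without the cre transgene, and from the cross their second allele was floxed or wild type. Replicate 1 was female, replicate 2 was male, and the dyes were exchanged between them, so that sex, dye and array cannot be told apart. In the study's model the floxed allele loses exons 2 and 3 of Pparg, and the Pax2-cre transgene acts in the nephric duct, the ureteric epithelium and the renal collecting ducts. The pools held whole ureters, so that fewer cells of a type and less RNA per cell cannot be told apart, and they also held mesenchymal cells, which the transgene is not described to reach. The p-values measure the spread between 2 pairs of pools.

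The direction of the ratios rests on the deposited value table, which is titled as Pparg-cKO against control. The dye labels run the opposite way on both arrays: by these, the red dye of replicate 1 marked control RNA and that of replicate 2 marked Pparg-cKO RNA. Across probes well above background, the deposited log2 values correlated with log2 red over green at r = 0.897 on replicate 1 and r = -0.900 on replicate 2. The deposited direction is called likely here because the gene losses seen in the study's tissue sections, and the increase of a Pparg transcript without exons 2 and 3 that they showed at this stage, go the same way. All pool names and all uses of higher and lower follow it; if the dye labels are right they are exchanged, while sizes, counts and p-values stay. Pparg itself read 12357 units in the Pparg-cKO and 6113 in the control pool of the female array, and 12930 and 6688 units on the male array, 1.96-fold higher (limma, adjusted p = 0.0373). Over 7 alternatives that use both arrays this adjusted p ran from 0.00332 to 0.533, and it was over 0.05 in 4 of them (scanner's processed signals, median centring, the deposited table and no dim filter). Where its probe lies relative to the floxed exons was not analysed here, so this value does not check the deletion. Of the superficial cell markers, Krt20 and the uroplakins Upk1a, Upk1b, Upk2, Upk3a and Upk3b were lower on both arrays (6 of 6), and their summed signal was 45366 and 49855 units in the Pparg-cKO pools against 78083 and 67979 units in the controls. Of the 6, 4 passed the fold rule, 2 were called by limma and 5 had an unadjusted p under 0.05.

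Most genes of cholesterol and fatty acid synthesis differed little between Pparg-cKO and control ureters. Of the 36 members, 2 passed the fold rule, which asks for at least 1.5-fold in the same direction on each array and a processed signal of at least 100 units in the brighter channel. Elovl4 was lower and Elovl7 was higher, and both are elongases. Over all genes bright enough for this rule 1.84% passed it (0.792% higher and 1.05% lower), and 30 members were bright enough. With limma, which moderates the spread of each gene by that of all genes, 1 member passed at an adjusted p under 0.05. This was Elovl4. Of the 22499 genes tested, limma called 0.751%, made up of 0.369% lower and 0.382% higher. At an unadjusted p under 0.05, 4 members (Elovl4, Elovl7, Elovl6 and Fdps) passed out of 35, against 8.51% of all genes tested.

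**Figure D1:**
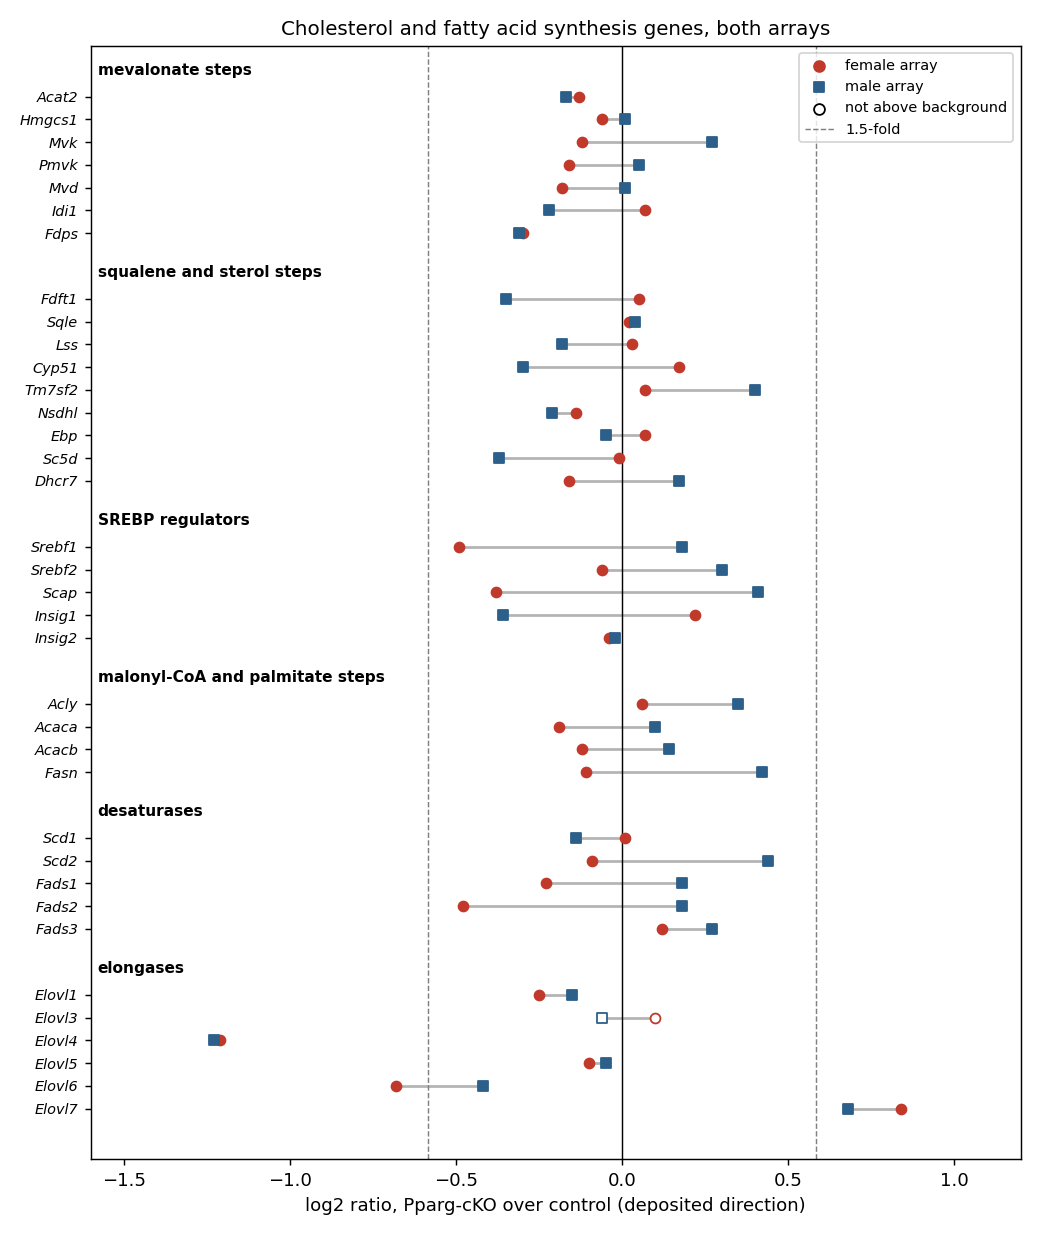
Log2 ratio of Pparg-cKO over control (horizontal axis, deposited direction) for each of the 36 genes, grouped by role; circles are the female and squares the male array, open symbols mark the gene not above background, and dashed lines mark 1.5-fold. Elovl4 at -1.21 and -1.23 and Elovl7 at 0.84 and 0.68 are the 2 genes beyond the dashed lines on both arrays, and most other pairs lie around 0.

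The plot of members by role shows pairs that mostly straddle or touch 0. The median log2 ratio of the 35 members tested was -0.06, with -0.10 (female) and 0.01 (male) on the single arrays, beside 0.01 over all genes tested. The absolute mean log2 ratio was under 0.25 in 31 of 35 members (88.6%), and in 84.9% of all genes tested. The 95% interval of the mean ratio, from limma, lay within 1.5-fold in either direction for 30 members (85.7%), close to the 84.2% of all genes tested. The exceptions were Elovl4, Elovl6, Elovl7, Srebf1 and Fads2. The median member had an interval of ± 0.30 on the log2 scale, so that smaller differences could not be resolved with 2 arrays. Signal units throughout are the scanner's processed signals, while ratios come from the normexp and loess values of the same spots. The sign of a ratio and the order of the processed signals differed on 1 or both arrays for 9 members, where the ratio was at most 0.10 in size.

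The elongases of the ELOVL family catalyse the condensation step that lengthens a fatty acyl chain, and their products enter membrane lipids, sphingolipids and storage fat. The 6 among the members are Elovl1 and Elovl3 to Elovl7. The median log2 ratio of the 5 measured above background was -0.20. The ratios of Elovl4, Elovl6 and Elovl1 were below 0 on both arrays; those of Elovl5 were as well after loess, but its female ratio was 0 with the scanner's processed signals. A further elongase, Elovl2, stood in the list of other pathway genes and had opposite signs (0.12 and -0.33) at 25.1 to 35.8 units. Values of the 5 members ran from -1.22 to 0.76, so that they lay at both ends of the whole list.

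Elovl4, which makes very long chain fatty acids, read 346 units in the Pparg-cKO and 837 units in the control pool of the female array. On the male array it read 332 and 810 units. Both Pparg-cKO pools lay below both controls, and the pools of a genotype differed little between the sexes. The log2 ratio was -1.21 and -1.23, with a mean of -1.22 ± 0.01 (SD, n = 2 arrays), which is 2.32-fold lower. The 95% interval was -1.48 to -0.95 and the adjusted p in limma was 0.0213. The 4 spots of the probe varied by an SD of 0.06 (log2) in the female and 0.07 in the male comparison. The design places this probe on chromosome 9, from 83673253 to 83673312 (mm9). A second one, from 83672645 to 83672704, gave log2 ratios of -0.92 and -0.83. The second probe read 174 against 332 units in the female and 151 against 304 units in the male pools, so that both probes were past 1.5-fold on both arrays. The adjusted p rose to 0.0547 with the scanner's processed signals and to 0.533 with the deposited table, where limma called 0 genes of all tested and 2101 had an unadjusted p under 0.05.

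Elovl7, an elongase of saturated long chains, lay in the opposite direction. It read 707 units in the Pparg-cKO and 378 units in the control pool of the female array. In the male pools it read 704 and 472 units. Both Pparg-cKO pools were again alike and above both controls. The log2 ratio was 0.84 and 0.68, with a mean of 0.76 ± 0.11 (SD, n = 2), or 1.69-fold higher, and a 95% interval of 0.48 to 1.04. Elovl7 passed the fold rule and not limma (adjusted p = 0.0826). With the scanner's processed signals its ratio on the male array was 0.58, just under the fold threshold. It was measured by 1 probe, placed on chromosome 13 from 109073556 to 109073615 (mm9).

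Elovl6 extends palmitate to stearate, and its signal was the next to stand away from 0. It read 1704 units in the Pparg-cKO and 2747 units in the control pool of the female array. The male pools gave 2089 and 2810 units. The Pparg-cKO pools lay below both controls, and the ratio was past 1.5-fold on the female array only. The log2 ratio was -0.68 and -0.42, with a mean of -0.55 ± 0.18 (SD, n = 2) and a 95% interval of -0.85 to -0.24, and neither the fold rule nor limma (adjusted p = 0.23) was passed. Its smaller ratio, 0.42 in size on the log2 scale, was the nearest below the fold threshold among members bright enough, and that of Elovl7, 0.68, the nearest above it.

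Elovl1 and Elovl5 were bright and close to even. Elovl1, which makes saturated very long chains for sphingolipids, read 3820 and 4394 units in the female Pparg-cKO and control pools and 3700 and 4279 units in the male ones. Its mean log2 ratio was -0.20 ± 0.07, with an interval of -0.47 to 0.07. Elovl5, which extends polyunsaturated chains, read 5257 and 5254 units in the female and 4976 and 5199 units in the male pools. Its mean log2 ratio was -0.07 ± 0.04, with an interval of -0.34 to 0.19.

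**Figure D2:**
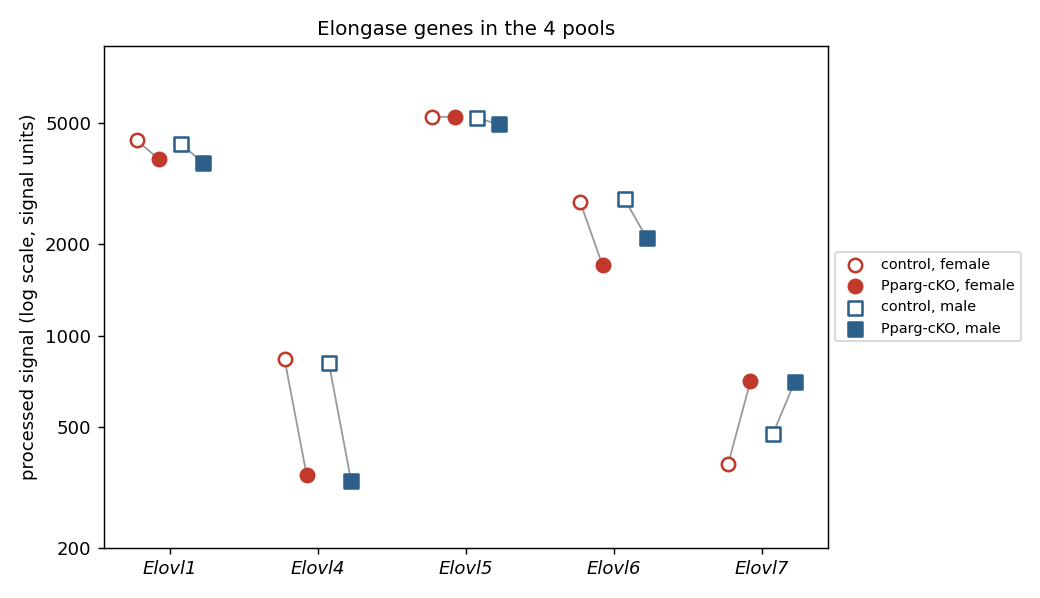
Processed signal (vertical axis, log scale, signal units) of the 5 elongase genes above background in each of the 4 pools; open symbols are control and filled symbols Pparg-cKO pools, circles female and squares male, and lines join the pools of an array. Elovl4 and Elovl6 are lower in both Pparg-cKO pools, Elovl7 is higher, and Elovl1 and Elovl5 are nearly level; levels of different genes come from different probes and cannot be compared.

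**Figure D3:**
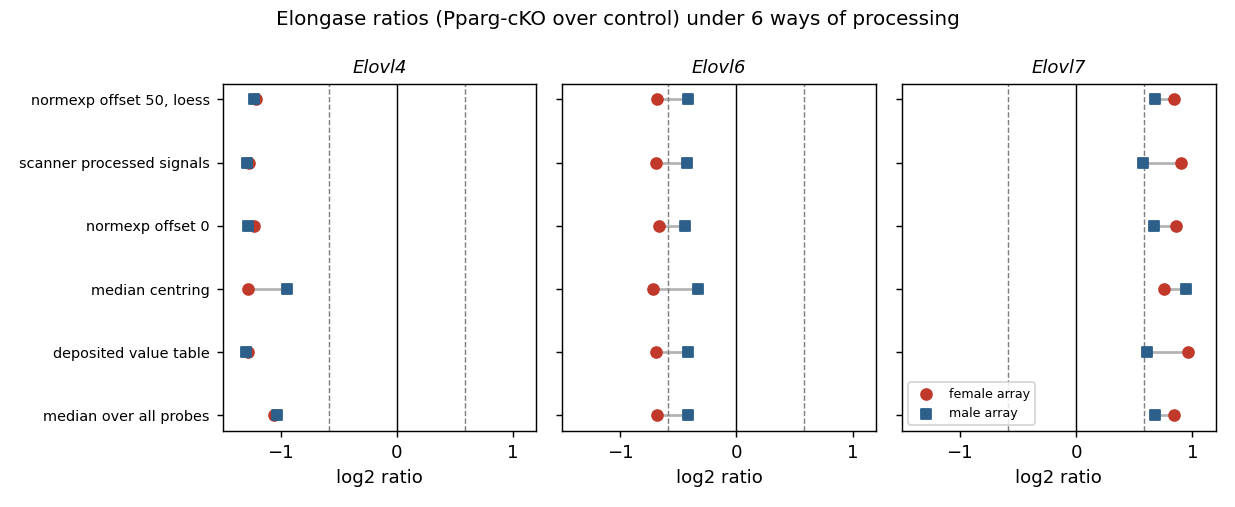
Log2 ratio of Pparg-cKO over control (horizontal axis) for 3 elongase genes, with circles for the female and squares for the male pair, under 6 ways of processing the same spots, with 1.5-fold as dashed lines. Elovl4 stays past 1.5-fold on both arrays in each, Elovl6 on the female array only, and Elovl7 on both except with the scanner's processed signals, where the male value is 0.58.

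The plot of elongase signals shows that the pair of pools of each genotype agreed more closely than the genotypes did for Elovl4, Elovl6 and Elovl7. Over 8 settings that use both arrays, the mean log2 ratio ran from -1.29 to -1.04 for Elovl4, from -0.56 to -0.52 for Elovl6 and from 0.74 to 0.85 for Elovl7. Levels of marker genes stand beside these values. Besides the superficial markers given above, the epithelial list (Epcam, Cdh1, Krt8, Krt18, Krt19, Cldn4, Cldn7) had a summed signal of 40188 and 54337 units in the Pparg-cKO pools and 46892 and 40346 units in the controls. Of its 7 genes, 4 were higher and 2 were lower on both arrays. Krt19 passed the fold rule as the higher gene (0.71 and 1.29), while Krt18 gave -1.04 and -0.54 and Krt8 -0.28 and 0.52. Limma called 0 of the 7, and 4 had an unadjusted p under 0.05. The basal list (Krt5, Krt14, Krt15, Trp63) summed to 5435 and 7286 units against 5121 and 5148 units, and its genes went different ways. Krt14 and Krt15 rose by a mean log2 ratio of 1.00 and 1.18, past the fold rule and limma (adjusted p = 0.0427 and 0.022). Trp63 gave -0.53 and -0.44 and was not called (adjusted p = 0.233), and Krt5 -0.86 and 0.35. The 95% intervals of Upk3a, Cdh1, Krt8, Cldn4 and Krt5 included 0. The part of these lists in the elongase values was not tested.

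An elongase works in a cycle with a ketoacyl reductase (Hsd17b12), a dehydratase (Hacd1 to Hacd4) and an enoyl reductase (Tecr). None of these 6 partner genes passed the fold rule or limma, and 2 had an unadjusted p under 0.05. Hacd1, Hacd2 and Hacd3 gave mean log2 ratios of -0.24, -0.25 and -0.27, while Hacd4 gave 0.32, each with the same sign on both arrays. Hsd17b12 was at -0.18 and Tecr at -0.11, and Tecr had opposite signs on the arrays. The interval lay within 1.5-fold for 5 of the 6.

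Promoter sequences were examined for letters known from the control of these pathways. A window from 250 bases before to 50 bases after the gene's start was given for 29 members in RefSeq (GRCm38.p6). Fdps, Fdft1, Sqle, Scd1, Scd2, Fads1 and Elovl3 had none. Searched on both strands were TCACNCCAC (sterol response element), CCAAT (NF-Y box) and 2 copies of AGGTCA spaced by 1 base with at most 2 mismatches (PPAR response element). CCAAT was found for 23 of 29 members (79.3%) and for 12 of 13 sterol enzymes (92.3%), beside 41.1% of all 27025 genes with a window. TCACNCCAC was found for 1 member (3.45%) and 1.44% of all genes, and the AGGTCA repeat for 1 member (3.45%) and 4.40% of all genes. A gene with several windows counts once. Shown are the 2 elongase genes past the fold rule, the elongase gene that holds the repeat, and Hmgcs1, which holds the sterol letters; matches are in capitals and each sequence runs along the gene's strand.
Elovl4, chr9:83806256-83806555 (minus strand): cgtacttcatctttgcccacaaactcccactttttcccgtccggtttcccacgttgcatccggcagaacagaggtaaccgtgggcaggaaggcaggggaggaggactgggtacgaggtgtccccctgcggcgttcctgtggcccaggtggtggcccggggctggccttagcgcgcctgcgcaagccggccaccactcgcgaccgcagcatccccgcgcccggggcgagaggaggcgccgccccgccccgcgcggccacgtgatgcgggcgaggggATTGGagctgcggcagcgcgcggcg
Elovl7, chr13:108214154-108214453 (plus strand): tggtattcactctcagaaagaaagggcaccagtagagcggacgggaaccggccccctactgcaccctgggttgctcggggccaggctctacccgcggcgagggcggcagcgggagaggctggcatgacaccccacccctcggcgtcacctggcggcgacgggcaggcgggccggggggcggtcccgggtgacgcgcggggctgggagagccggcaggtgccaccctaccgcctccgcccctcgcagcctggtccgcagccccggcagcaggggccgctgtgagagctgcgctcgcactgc
Elovl1, chr4:118429451-118429750 (plus strand): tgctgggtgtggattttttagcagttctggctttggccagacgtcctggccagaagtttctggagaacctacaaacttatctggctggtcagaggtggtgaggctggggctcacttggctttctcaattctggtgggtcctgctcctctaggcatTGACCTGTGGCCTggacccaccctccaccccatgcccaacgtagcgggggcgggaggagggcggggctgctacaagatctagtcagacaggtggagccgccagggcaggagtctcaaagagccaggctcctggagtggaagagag
Hmgcs1, chr13:119690101-119690400 (plus strand): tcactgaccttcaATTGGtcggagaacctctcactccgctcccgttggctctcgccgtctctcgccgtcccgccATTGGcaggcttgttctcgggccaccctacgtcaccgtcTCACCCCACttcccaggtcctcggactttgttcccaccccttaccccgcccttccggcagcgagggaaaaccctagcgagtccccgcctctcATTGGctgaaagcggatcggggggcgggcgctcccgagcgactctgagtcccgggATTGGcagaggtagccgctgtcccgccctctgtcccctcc
The Elovl4 window holds 1 CCAAT box on the opposite strand and neither other motif, and the Elovl7 window holds none of them. The capitals in Elovl1 are the AGGTCA repeat on the opposite strand, with 1 mismatch, and those in Hmgcs1 are 4 CCAAT boxes and the sterol letters. A match is a run of letters and was not tested as a binding site.

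Among the 7 enzymes that open the sterol branch, from Acat2, which joins acetyl units, to Fdps, which makes farnesyl diphosphate, the median log2 ratio was -0.07. By array it was -0.13 (female) and 0.01 (male). No gene passed the fold rule or limma, and 1 had an unadjusted p under 0.05. That gene was Fdps, which read 2215 units in the Pparg-cKO and 2629 in the control pool of the female array, and 1931 and 2618 units on the male array. Its Pparg-cKO pools lay below both controls at a mean log2 ratio of -0.30 ± 0.01 (SD, n = 2), 1.23-fold, with an interval of -0.57 to -0.04 and an adjusted p of 0.509 in limma. Hmgcs1, which makes HMG-CoA and holds the sterol letters in its promoter window, read 3249 and 3201 units in the female and 3344 and 3555 units in the male pools, with a log2 ratio of -0.06 and 0.01, opposite in sign to the order of the signals. Its 4 pools were close to level, and the interval was -0.29 to 0.25. Acat2 was at -0.13 and -0.17. The kinases Mvk and Pmvk, the decarboxylase Mvd and the isomerase Idi1 had opposite signs on the arrays, with means from -0.09 (Mvd) to 0.07 (Mvk). Mvd was dim, at 57.2 to 70.4 units.

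The 9 enzymes from squalene to cholesterol had a median log2 ratio of -0.06, which was 0.03 with median centring in place of loess. By array it was 0.03 (female) and -0.18 (male). None passed the fold rule, limma or an unadjusted p under 0.05, and all 9 intervals lay within 1.5-fold. Fdft1, which makes squalene, read 1800 and 1816 units in the female Pparg-cKO and control pools and 1452 and 1902 units in the male ones, so that only the male pools differed (log2 ratio 0.05 and -0.35). Sc5d, the lathosterol desaturase, gave -0.01 and -0.37, and Cyp51, the lanosterol demethylase, 0.17 and -0.30. Sqle, the squalene epoxidase, was level at 0.02 and 0.04. Nsdhl was lower on both arrays (-0.14 and -0.21), and Tm7sf2, a sterol reductase, gave 0.07 and 0.40, with female pools close to level (457 and 471 units) and a second probe at -0.09 and 0.29. Lss, Ebp and Dhcr7 had opposite signs, with means between -0.07 and 0.01.

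Of the 5 regulators of SREBP, 3 were lower in the female and higher in the male pair, and 1 was the reverse. Opposite signs were common over all genes tested, with shares of 25.7% and 21.6%. The median log2 ratio of the 5 regulators was -0.03, which was 0.03 with median centring. By array it was -0.06 for the female and 0.18 for the male pair, and none passed the fold rule, limma or an unadjusted p under 0.05. Scap, the escort of SREBP, read 747 units in the Pparg-cKO and 978 units in the control pool of the female array, and 1307 and 943 units on the male array. The controls were alike and the Pparg-cKO pools lay on either side of them. The log2 ratios were -0.38 and 0.41, and Scap was the only member past 1.2-fold in opposite directions, which held for 1.38% of all genes tested. The kept spots of its probe, 3 for the female and 4 for the male pair, varied by an SD of 0.03 and 0.05. Srebf1 gave -0.49 and 0.18 at 75.4 to 114 units, with an interval of -0.62 to 0.31. Srebf2 gave -0.06 and 0.30, and Insig1, itself a known SREBP target, 0.22 and -0.36. Insig2 was level at -0.04 and -0.02.

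The enzymes that lead to palmitate are Acly, which releases cytosolic acetyl-CoA, the carboxylases Acaca and Acacb, and the fatty acid synthase Fasn. None passed the fold rule, limma or an unadjusted p under 0.05, and all 4 intervals lay within 1.5-fold. Each had a higher ratio on the male than on the female array, with medians of 0.24 and -0.12. The same held for 22 of the 35 members tested and for 12414 of the 22499 genes tested. Acly read 3442 and 3268 units in the female and 4181 and 3353 units in the male pools, so that the male Pparg-cKO pool was the highest of the 4. Acaca read 844 and 945 units in the female and 1175 and 1059 units in the male pools. Fasn was dim, with 40.8 and 43.7 units in the female and 69.4 and 48.7 units in the male pools, and Acacb lay at 53.6 to 82.2 units.

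The 5 desaturases, which place double bonds, had a median log2 ratio of -0.02, which was 0.06 with median centring. By array it was -0.09 (female) and 0.18 (male). None passed the fold rule, limma or an unadjusted p under 0.05. Scd1 and Scd2 make monounsaturated chains. Scd1 read 349 and 339 units in the female and 281 and 327 units in the male pools, with an interval of -0.34 to 0.22. Scd2 read 5129 and 5355 units in the female and 6206 and 4766 units in the male pools, a log2 ratio of -0.09 and 0.44. Fads1 and Fads2, which desaturate polyunsaturated chains, gave -0.23 and 0.18, and -0.48 and 0.18. Fads3 was higher on both arrays, at 0.12 and 0.27.

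**Figure D4:**
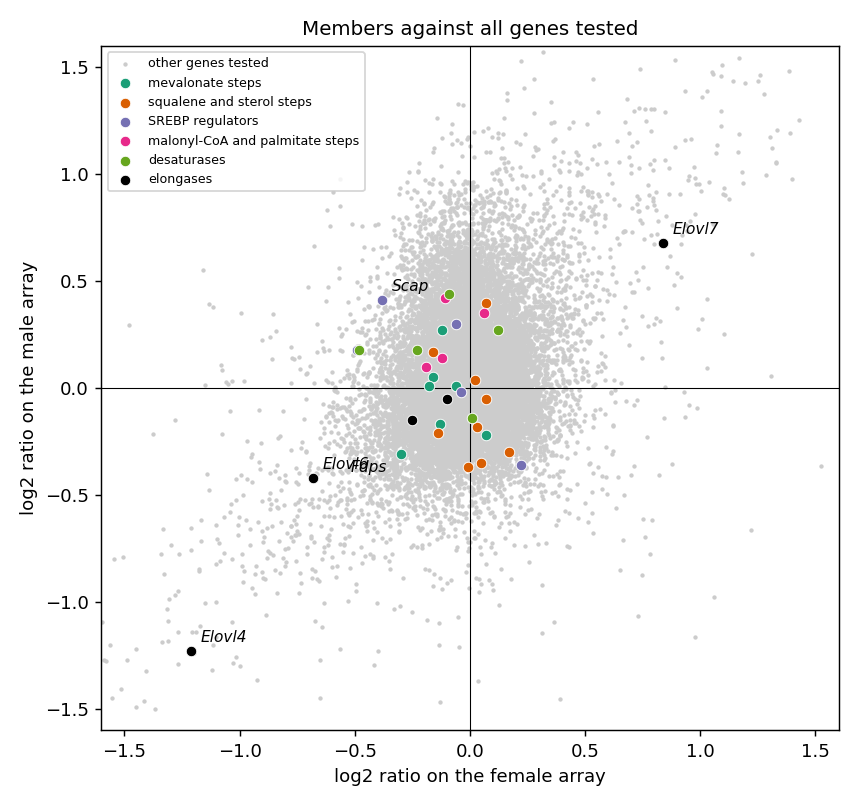
Log2 ratio of Pparg-cKO over control in the female (horizontal axis) and male pair (vertical axis) for the 35 members tested, coloured by role, over the other genes tested in grey (102 of all genes tested lie outside the axes). Elovl4 and Elovl6 lie at the lower left and Elovl7 at the upper right, where the ratios agree in sign, while Scap lies at the upper left.

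In the plot of the female against the male array, 14 members had the same sign on both arrays, 5 higher and 9 lower, and the share over all genes tested was 52.8%. A further 14 members were lower in the female pair but higher in the male pair (25.7% of all genes tested), and 7 were the reverse (21.6%). All 5 member elongases above background were among the 14, Elovl5 with ratios of -0.10 and -0.05. Levels of other tissues' markers also differed by array. The liver list (Alb, Afp, Apoa1, Apoa2, Fgb) summed to 3381 units in the male control pool and 1488 to 1664 units in the other 3 pools; Alb and Fgb had an unadjusted p under 0.05. Of 8 adipocyte markers, Cidec, Plin1, Lep and Cfd were not above background, and the median log2 ratio of the list was -0.56 (female) and -0.08 (male). Adipoq read 12.3 against 85.9 units in the female and 8.24 against 13.1 units in the male pools, and it and Plin4 had an unadjusted p under 0.05. Its sum lay between 14641 and 18987 units and came mainly from Fabp4, which endothelial cells also express. The steroid-making cell list (Star, Cyp11a1, Cyp17a1, Cyp21a1, Hsd3b1) summed to 132 to 177 units in every pool, and Hsd3b1 had an unadjusted p under 0.05. No gene of the liver, adipocyte and steroid-making lists passed the fold rule or limma. The lists for smooth muscle, Schwann cells, blood, immune cells and endothelium had median log2 ratios of -0.18, 0.09, 0.11, 0.15 and 0.13, with 0 of their genes past the fold rule or called by limma (1 of them, Cdh5, at an unadjusted p under 0.05). The part of these lists in the members' values was not tested.

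Other genes of the same pathways were taken from a list of neighbouring steps, transport and control, of which 42 were measured. None passed the fold rule or limma, and the median log2 ratio was -0.03. At an unadjusted p under 0.05 in limma, 3 of the 42 passed, against 8.51% of all genes tested. The 3 genes, which were picked out after their values were seen, were Me1, Hacd3 and Hacd4. Me1, the malic enzyme that supplies NADPH for fatty acid synthesis, read 1453 and 2424 units in the female and 1700 and 2462 units in the male pools. Both Pparg-cKO pools lay below both controls, with a mean log2 ratio of -0.62 that limma did not call (adjusted p = 0.147).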

How the data were processed

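Total RNA of the 4 pools was amplified in 1 round, labelled with AlexaFluor555 or AlexaFluor647 and hybridised to 2 Agilent whole mouse genome arrays on the same slide, read with Agilent Feature Extraction 10.7.3.1 per the submitters' processing notes. Intensity in the deposited scanner files was linear: a mean signal, a local background median, and processed values corrected for background and dye by that software, with their log10 red over green ratio. The deposited value table held the authors' signed fold change of each probe and array, entered as a score since no value lay between -1 and 1; it gave the direction and an alternative. There were 174979 spots on each array, 157716 of them not controls, and 0 were saturated; outlier flags removed 2.87% and 3.24%. The number of arrays limits the precision.

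In limma 3.58.1 under R 4.3.3, signals were corrected with normexp (offset 50) and normalised by loess within arrays, with control spots at weight 0. Kept spots were averaged, 1 probe without any was left out, and a gene was represented by its brightest probe. The limma test was fitted to the 2 turned log2 ratios of 22499 genes, two-sided, with Benjamini-Hochberg adjustment over all of them (1 residual and 4 prior degrees of freedom per gene). Gene names and mm9 positions are those of the array design; 34 members matched a RefSeq transcript, all under the same symbol. Exon structure was not analysed here. The rule for the members uses no measured value, but the members, the list of other pathway genes and the markers were chosen with earlier results of these data known. All members are reported, in full where they passed a rule or differed by array. Other pathway genes were to be named where they passed or are direct partners. Outside that rule, Elovl2 is named as a further elongase and Me1 for its unadjusted p. Alternatives were the scanner's processed signals, normexp with offset 0, median centring, the deposited table, the median over probes, no dim filter, single arrays and separate channels.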

Additional observations from a re-analysis of the deposited data

Results flagged for a closer look

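The log2 ratio of Scap was 0.80 higher on the male than on the female array, with values of -0.38 and 0.41 for the female and male pairs, each past 1.2-fold and in opposite directions. With 1 pair of pools of each sex this difference was not tested, and sex, dye and array cannot be told apart. Over the settings that use both arrays its ratio ran from -0.46 to -0.38 in the female and from 0.39 to 0.62 in the male pair.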

How the results depend on the processing

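The 2 members past the fold rule were 1 (Elovl4) with the scanner's processed signals and 2 with each other setting that uses both arrays; single arrays gave 2 to 3. Limma called 1 member; it called 0 with the scanner's processed signals and 0 with the deposited table (where 3 and 4 members had an unadjusted p under 0.05), and 2 (Elovl4 and Elovl7) with normexp offset 0 and with separate channels, no replicate block. That setting replaces the ratios within an array by 2 against 2 pools and so changes the scale and the replicate block together; it gave 2 members called by limma against 1, and the part of the block alone was not tested. Without replicate 1 or 2 no residual degrees of freedom remain, so limma was not run. The median of the members was 0.03 with median centring, where the median of all genes was 0.04 (0.10 on the male array) and 27 of 35 members kept their sign; with single arrays it was -0.10 to 0.01. Elovl4, Elovl6, Elovl7 and Fdps kept their direction in every setting, single arrays included. The adjusted p of Pparg was over 0.05 with the scanner's processed signals (0.097), median centring (0.0924), the deposited table (0.533) and no dim filter (0.062). Of the 15 members with several probes, 11 had the same sign of the mean on the 2 brightest. The 5 members above background that were under 100 units in both channels of 1 or both arrays could not pass the fold rule.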
